A study of Mus musculus with 38 samples.

Results

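Whole back skin of 3 mice labelled as Srsf2 knockouts and treated for 4 days was compared with that of 3 control mice, 6 of the 38 libraries of the series, chosen by genotype and treatment time in the labels. Srsf2 encodes an SR protein, a splicing factor that binds exons of pre-mRNA and also takes part in releasing paused RNA polymerase. The knockout mice were Krt14-CreER positive and received 4-hydroxytamoxifen on the back skin every other day over 4 days, and 2 of them were homozygous and 1 wild type for the tdTomato reporter. The control mice came from the same SRSF2 KO line, were Cre negative and had the same drug for 12, 12 and 10 days (replicates 1 to 3, with 1, 2 and 0 tdTomato alleles). Knockout mice at 10 days (3, with 2, 0 and 1 tdTomato alleles) and at 12 days (3, with 1 each), Cre positive and given the same drug, served for further comparison. Krt14-CreER recombines in cells that express keratin 14, the basal keratinocytes and outer root sheath, whereas the RNA came from whole skin with its dermal, immune and muscle cells. Since no control was treated for 4 days or carried Cre, the effects of deletion, of Cre itself and of a shorter treatment cannot be told apart. The replicates are labelled as biological, and neither age nor sex of the mice is given in the sources used here. Below, knockout replicates 1 to 3 are the 4-day libraries.

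Every deposited value was a whole multiple of the smallest positive value of its library, here called a step, and levels below are in steps. Library totals were 28.9 to 32.1 M steps in knockout skin at 4 days and 28.5 to 30.2 M steps in control skin. Between 23009 and 23681 genes of a library stood at exactly 1 step and at most 40 at 0, so 1 step is called the floor. Of 49585 listed genes, 19436 had a mean of at least 10 steps over the 12 knockout-set libraries and were tested with limma on log2(steps + 1), with p values adjusted over all of them. The 4 Y-linked genes examined were at 15 to 82 steps in 11 libraries and at 4293 to 8764 steps in the 12-day library of replicate 3. Xist was at 1719, 1876 and 1426 steps in knockout skin at 4 days and 94, 216 and 1395 steps in control skin. Because of the floor, steps were not treated as plain read counts. How the values were made from reads is not given in full in the sources used here.

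Skin is built from an epidermis of dividing basal keratinocytes that differentiate upwards into spinous and cornified layers, from hair follicles that cycle between growth and rest, and from a dermis of fibroblasts, vessels, fat and resident macrophages. Resident dermal macrophages lie along vessels, clear debris and carry scavenger receptors. Fibroblasts lay down the collagen and microfibrils that give the dermis its strength. In such bulk samples, fewer cells of a type and less RNA per cell cannot be told apart.

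The Srsf2 transcript (ENSMUSG00000034120.18, chromosome 11, 116849901 to 116853094 on the minus strand in the GENCODE M21 annotation of GRCm38) had 2450, 2790 and 2671 steps in knockout skin at 4 days, against 2885, 2879 and 2996 steps in control skin. All 3 knockout values lay below all 3 control values, by little, as in 13.4% of all genes tested. The difference in Srsf2 did not pass the test (log2 -0.15 ± 0.10 (SE), limma adjusted p = 0.369). Krt14, whose promoter drives the Cre, had 44571, 51993 and 43168 steps in knockout skin at 4 days, against 65098, 57445 and 62459 steps in control skin, which did not pass either (log2 -0.41 ± 0.25 (SE), limma adjusted p = 0.327). None of 13 SR protein genes, 34 core spliceosome genes or 19 genes of the 7SK complex and pause release passed, with median log2 differences of -0.0119, 0.0741 and -0.0052. With equal library totals these medians were -0.0926, -0.00654 and -0.0859. The regulators Esrp1 and Esrp2, which set epithelial splice forms, were the 2 that fell among 39 hnRNP and splicing regulator genes (log2 -0.55 and -0.65, limma adjusted p = 0.0269 and 0.0241), and Nova1 was the 1 that rose (0.73, adjusted p = 0.0492). In this list 7.69% of genes passed, below the 11.3% of all genes tested. For the splicing regulators the number passing was 1 without knockout replicate 1, 0 without knockout replicate 3, 0 without control replicate 1, 1 with only the 2 groups in the fit and 0 with the deposited values. Esrp1, Esrp2 and Nova1 did not pass without knockout replicate 3 (adjusted p of 0.118 to 0.176) or without control replicate 1 (adjusted p of 0.103 to 0.112).

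Across the transcriptome 2201 genes passed in skin at 4 days, 11.3% of those tested. Of these, 1401 (7.21%) were higher and 800 (4.12%) lower than in control skin, and 636 of the higher and 228 of the lower genes differed at least 2-fold. The median over all genes was -0.00896 on the log2 scale. With every library brought to the same total, which put the median gene at -0.089, the split was 1055 higher to 1032 lower. Without knockout replicate 3, 295 genes passed, without control replicate 1, 537, and without knockout replicate 1, 1188. In all, 292 calls held whichever of the 6 libraries was left out.

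Lists with many rises included those of macrophages, myeloid receptors, nucleic acid sensors, dermal matrix and mitosis, and lists with falls included those of keratinocytes, hair follicles and muscle. The plot of calls by gene list gives the share of each list past the test.

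**Figure D1:**
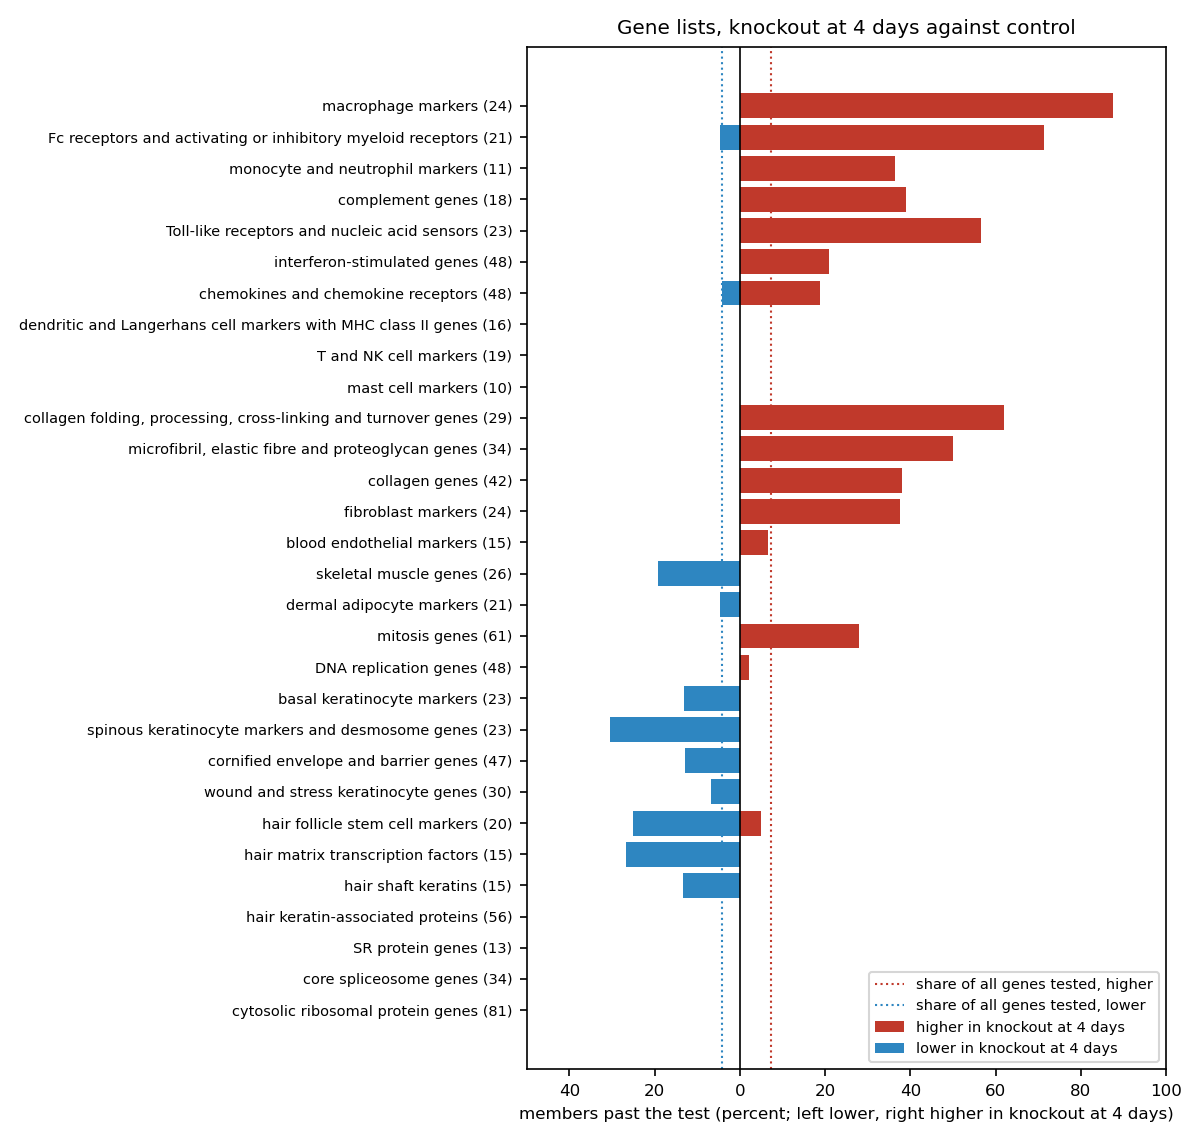
Bars give the percentage of tested members of each gene list (number tested in brackets) that passed limma at an adjusted p under 0.05, to the right for genes higher and to the left for genes lower in knockout skin at 4 days than in control skin; dotted lines mark the 7.21% and 4.12% of all genes. Macrophage markers stand at 21 of 24 higher, while T and NK cell, mast cell, SR protein, spliceosome and ribosomal protein genes have no bar.

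Macrophage markers had the largest share of rises among the lists. Of 24 tested markers 21 rose and none fell, with a median log2 difference of 1.58 against -0.00896 over all genes. Cd5l, a secreted scavenger protein of tissue macrophages, had 220, 396 and 483 steps in knockout skin at 4 days, against 34, 23 and 35 steps in control skin (log2 3.49 ± 0.34 (SE), limma adjusted p = 0.00125). Lyve1, a hyaluronan receptor of perivascular macrophages and of lymphatic vessels, had 2872, 2182 and 3240 steps in knockout skin at 4 days, against 454, 494 and 524 steps in control skin (log2 2.48 ± 0.25 (SE), limma adjusted p = 0.00138). Timd4, a receptor for phosphatidylserine on dying cells, had 508, 432 and 757 steps in knockout skin at 4 days, against 107, 85 and 112 steps in control skin (log2 2.44 ± 0.30 (SE), limma adjusted p = 0.00403). In all 3 genes the lowest knockout library lay above the highest control library, as it did in 16.0% of all genes tested. Of 7 lymphatic endothelial markers, Lyve1 was the only one to pass.

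Other markers of the macrophage list rose as well. Mrc1, the mannose receptor, rose 3.2-fold (log2 1.68, limma adjusted p = 0.00656), Folr2, a folate receptor, 2.94-fold (1.56, adjusted p = 0.00656) and Adgre1, the F4/80 antigen, 2.86-fold (1.52, adjusted p = 0.00799). C1qa, C1qb and C1qc, which form the recognition unit of complement, rose 2.95-, 3.37- and 3.03-fold (adjusted p = 0.0101, 0.013 and 0.0126). Summed over the list, macrophage markers were at 126713 to 225085 steps in knockout skin at 4 days and 51137 to 75649 steps in control skin. Knockout replicate 2 was the lowest of its group in Adgre1, with 9555, 5620 and 11144 steps in knockout skin at 4 days, against 2141, 3325 and 3583 steps in control skin. For the macrophage markers the number passing was 10 without knockout replicate 3 and 11 without control replicate 1. C1qb and C1qc did not pass without knockout replicate 3 (adjusted p of 0.0665 to 0.0678) or without control replicate 1 (adjusted p of 0.0567 to 0.0607). C1qa did not pass without knockout replicate 3 (adjusted p = 0.0548).

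Receptor genes of myeloid cells rose too. Of 21 Fc and activating or inhibitory myeloid receptors 15 rose and 1 fell, with a median of 1.61. Trem2, a lipid receptor, had 390, 240 and 693 steps in knockout skin at 4 days, against 57, 79 and 121 steps in control skin (log2 2.28 ± 0.41 (SE), limma adjusted p = 0.00965). Its signalling adaptor Tyrobp rose 3.08-fold (adjusted p = 0.0101), as did the activating Fc receptor gene Fcgr3 by 3.05-fold (adjusted p = 0.0102). The 1 that fell was Fcer2a, the low-affinity IgE receptor of B cells, with 130, 24 and 10 steps in knockout skin at 4 days, against 340, 630 and 284 steps in control skin (log2 -3.58 ± 0.76 (SE), limma adjusted p = 0.016). The paired receptor genes Pira2 and Pirb belong to a family of near-identical copies, so their values of log2 2.95 and 1.51 are uncertain. For the Fc and myeloid receptors the number passing was 10 without knockout replicate 1, 2 without knockout replicate 3, 5 without control replicate 1, 10 with only the 2 groups in the fit and 8 with the deposited values. Fcer2a and Pirb did not pass without knockout replicate 3 (adjusted p of 0.066 to 0.0696) or without control replicate 1 (adjusted p of 0.0561 to 0.0588). Tyrobp and Fcgr3 did not pass without knockout replicate 3 (adjusted p of 0.0542 to 0.0549).

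Monocyte and chemokine genes rose in part. Ccr2, the receptor that brings monocytes into tissue, had 2887, 1536 and 2349 steps in knockout skin at 4 days, against 514, 565 and 504 steps in control skin (log2 2.05 ± 0.25 (SE), limma adjusted p = 0.00403). F13a1, the clotting factor XIII chain made by monocytes and resident macrophages, rose 3.75-fold (log2 1.91, adjusted p = 0.00271). Ccl6, a macrophage chemokine, had 2558, 2273 and 2149 steps in knockout skin at 4 days, against 660, 653 and 505 steps in control skin (log2 1.95 ± 0.19 (SE), limma adjusted p = 0.00125), and Ccl9, its neighbour in the same family, rose 3.11-fold (adjusted p = 0.00262). Fcna, a ficolin of macrophages that is outside the lists and was chosen after its values were seen, had 1574, 1155 and 1539 steps in knockout skin at 4 days, against 453, 547 and 521 steps in control skin (log2 1.48 ± 0.14 (SE), limma adjusted p = 0.00125). For each of these 5 genes the groups did not overlap and the call held without any 1 of the 6 libraries. Of all genes tested, 16.0% were higher without overlap. Of 48 chemokines and chemokine receptors 9 rose and 2 fell, and of 11 monocyte and neutrophil markers 4 rose. The chemokines that fell were Cxcl14, made by keratinocytes, and Cxcl12, made by dermal stromal cells, by 0.87 and 0.41 on the log2 scale (adjusted p = 0.0302 and 0.0377). For chemokines and their receptors the number passing was 3 without knockout replicate 3 and 6 without control replicate 1. For monocyte and neutrophil markers the number passing was 2 without knockout replicate 3 and 2 with the deposited values. Cxcl14 and Cxcl12 did not pass without knockout replicate 3 (adjusted p of 0.138 to 0.17) or without control replicate 1 (adjusted p of 0.124 to 0.133).

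Most markers of other immune cells did not pass. None of 19 T and NK cell markers, 16 dendritic and Langerhans cell markers with MHC class II genes, or 10 mast cell markers passed (medians 0.0312, 0.289 and 0.0229, and -0.0465, 0.208 and -0.0538 with equal totals). At an unadjusted p under 0.05, 5211 genes of all tested passed. Cd3e, a chain of the T cell receptor complex, had 241, 116 and 92 steps in knockout skin at 4 days, against 214, 281 and 150 steps in control skin, and the groups overlapped. Cd207, the langerin of Langerhans cells, had 444, 349 and 280 steps in knockout skin at 4 days, against 355, 402 and 263 steps in control skin, again with overlap. Of 8 B and plasma cell markers 1 rose and 1 fell. Ighm, the heavy chain of immunoglobulin M, had 4385, 3435 and 4276 steps in knockout skin at 4 days, against 1265, 2405 and 1696 steps in control skin (log2 1.21 ± 0.26 (SE), limma adjusted p = 0.0151). Fcer2a, the low-affinity receptor for immunoglobulin E, had 130, 24 and 10 steps in knockout skin at 4 days, against 340, 630 and 284 steps in control skin (log2 -3.58 ± 0.76 (SE), limma adjusted p = 0.016). The summed T and NK markers were at 1781 to 2634 steps in knockout skin at 4 days and 1609 to 2218 steps in control skin. For B and plasma cell markers the number passing was 0 without knockout replicate 3, 0 without control replicate 1 and 1 with only the 2 groups in the fit. Ighm and Fcer2a did not pass without knockout replicate 3 (adjusted p of 0.0696 to 0.0717) or without control replicate 1 (adjusted p of 0.0561 to 0.0651).

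Sensors of microbial and self nucleic acid rose in part. Of 23 Toll-like receptors and nucleic acid sensors 13 rose and none fell, with a median of 1.05. Tlr7, an endosomal sensor of single-stranded RNA, had 696, 486 and 718 steps in knockout skin at 4 days, against 176, 250 and 199 steps in control skin (log2 1.59 ± 0.24 (SE), limma adjusted p = 0.00656). Tlr8 rose 2.65-fold (adjusted p = 0.0101) and Unc93b1, which carries these receptors to endosomes, 2.82-fold (adjusted p = 0.0102). Tlr13, which in mice senses bacterial ribosomal RNA, had 318, 360 and 946 steps in knockout skin at 4 days, against 63, 44 and 115 steps in control skin (log2 2.78 ± 0.51 (SE), limma adjusted p = 0.00989). The DNA sensors Mb21d1 (cGAS) and Aim2 rose 1.61- and 2.1-fold (adjusted p = 0.013 and 0.0101), and Tmem173 (STING) 2.21-fold (adjusted p = 0.0224). Several of these genes are expressed by macrophages, whose 21 of 24 markers rose in the same libraries, and the part of that rise in this result was not tested. Tlr13 is itself 1 of those 24 markers. For the sensors the number passing was 8 without knockout replicate 1, 2 without knockout replicate 3, 5 without control replicate 1, 8 with only the 2 groups in the fit and 5 with the deposited values. Mb21d1 and Tmem173 did not pass without knockout replicate 3 (adjusted p of 0.0747 to 0.111) or without control replicate 1 (adjusted p of 0.0518 to 0.0963). Tlr8, Unc93b1 and Aim2 did not pass without knockout replicate 3 (adjusted p of 0.0548 to 0.0558).

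Genes induced by interferon rose in smaller number. Interferons bind receptors that activate STAT and IRF factors, and these bind a short element in the promoters of antiviral genes. Of 48 interferon-stimulated genes 10 rose and none fell, with a median of 0.894. Mx1, an antiviral GTPase, had 575, 490 and 719 steps in knockout skin at 4 days, against 222, 277 and 272 steps in control skin (log2 1.20 ± 0.20 (SE), limma adjusted p = 0.00773), and it was the only one of the 10 whose call held whichever of the 6 libraries was left out. Oas1a, which senses double-stranded RNA, had 762, 405 and 922 steps in knockout skin at 4 days, against 174, 224 and 259 steps in control skin (log2 1.60 ± 0.35 (SE), limma adjusted p = 0.017). Its paralogue Oas1g shares sequence with it, so the split between them is uncertain. Oasl1 rose 3.44-fold, Ifi44 4.31-fold and Trim30a 2.12-fold (limma adjusted p = 0.0121, 0.0212 and 0.0168). The RNA sensor genes Ddx58 and Ifih1 rose 1.5- and 1.4-fold (adjusted p = 0.0348 and 0.0487). For the interferon-stimulated genes the number passing was 4 without knockout replicate 1, 16 without knockout replicate 2, 1 without knockout replicate 3, 2 without control replicate 1, 6 without control replicate 2, 6 with only the 2 groups in the fit and 3 with the deposited values. Oas1a, Oas1g, Oasl1, Trim30a, Ddx58 and Ifih1 did not pass without knockout replicate 3 (adjusted p of 0.0652 to 0.212) or without control replicate 1 (adjusted p of 0.0573 to 0.161). Ifi44 did not pass without knockout replicate 3 (adjusted p = 0.105).

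The promoters of 2 of these genes are printed to show the interferon-stimulated response element that much of the list carries. They come from RefSeq (GRCm38.p6), run from 250 bases before to 50 after the start of the transcript, and are written 5′ to 3′ on the gene's strand, with matches to GAAA, 2 bases of any kind and GAAA again, on either strand, in capitals.
Oas1a (chr5:120907476-120907775, minus strand): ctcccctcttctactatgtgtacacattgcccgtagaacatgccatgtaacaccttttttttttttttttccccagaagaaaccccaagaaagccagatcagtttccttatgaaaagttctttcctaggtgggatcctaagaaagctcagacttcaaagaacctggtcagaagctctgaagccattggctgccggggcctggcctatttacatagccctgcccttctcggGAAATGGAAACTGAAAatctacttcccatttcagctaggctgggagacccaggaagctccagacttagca
Ddx58 (chr4:40239776-40240075, minus strand): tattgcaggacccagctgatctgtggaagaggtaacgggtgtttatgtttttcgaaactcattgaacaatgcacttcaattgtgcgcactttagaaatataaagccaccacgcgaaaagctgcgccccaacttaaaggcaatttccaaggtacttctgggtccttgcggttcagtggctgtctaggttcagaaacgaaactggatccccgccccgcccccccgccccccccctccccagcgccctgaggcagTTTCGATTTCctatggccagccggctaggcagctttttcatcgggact
The Oas1a promoter holds 2 matches that overlap each other, and the Ddx58 promoter holds 1 on the reverse strand. Of the interferon-stimulated genes with a listed promoter 19 of 34 (55.9%) held the element, and 5 of the 8 that rose (62.5%), against 3.99% of 27025 gene symbols. A match is a string of letters and does not show that a factor was bound.

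Matrix genes of the dermis rose in part. Of 42 collagen genes 16 rose and none fell, although the list's median was only 0.193. Col1a1, a chain of the main fibrillar collagen, had 799043, 579377 and 1221484 steps in knockout skin at 4 days, against 114827, 316033 and 246273 steps in control skin (log2 1.99 ± 0.46 (SE), limma adjusted p = 0.0212). Col5a1 and Col5a3, chains of the collagen that nucleates fibrils, rose 2.95- and 2.14-fold (adjusted p = 0.00791 and 0.00823). Col6a6, a chain of microfibrillar collagen VI, had 832, 1051 and 650 steps in knockout skin at 4 days, against 157, 328 and 143 steps in control skin (log2 2.08 ± 0.34 (SE), limma adjusted p = 0.00742). All 3 knockout values were above all 3 control values in each of these 4 genes, as in 16.0% of all genes tested. For the collagens the number passing was 3 without knockout replicate 3, 5 without control replicate 1 and 5 with only the 2 groups in the fit. Col1a1 did not pass without knockout replicate 3 (adjusted p = 0.1) or without control replicate 1 (adjusted p = 0.0861).

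Among 34 microfibril, elastic fibre and proteoglycan genes 17 rose and none fell, with a median of 0.827. Fbn1, the fibrillin that forms microfibrils, had 81025, 55443 and 105529 steps in knockout skin at 4 days, against 20305, 31612 and 33792 steps in control skin (log2 1.48 ± 0.26 (SE), limma adjusted p = 0.0086). Fn1, fibronectin, had 49010, 28195 and 34141 steps in knockout skin at 4 days, against 15937, 11753 and 13042 steps in control skin (log2 1.42 ± 0.23 (SE), limma adjusted p = 0.00742). Nid2, a basement membrane linker, rose 2.73-fold (adjusted p = 0.00705), Emilin2 2.68-fold (adjusted p = 0.00724) and Ltbp1, which stores latent TGF-beta, 1.86-fold (adjusted p = 0.00705). These 5 held whichever of the 6 libraries was left out. Decorin (Dcn), a collagen-binding proteoglycan, rose 2.04-fold (limma adjusted p = 0.0387). For the microfibril list the number passing was 5 without knockout replicate 3, 7 without control replicate 1, 7 with only the 2 groups in the fit and 9 with the deposited values. Dcn did not pass without knockout replicate 3 (adjusted p = 0.174) or without control replicate 1 (adjusted p = 0.147).

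Enzymes that fold, trim and cross-link collagen rose as well. Of 29 such genes 18 rose and none fell, with a median of 0.933. Loxl1, a lysyl oxidase that cross-links collagen and elastin, had 6170, 3553 and 6117 steps in knockout skin at 4 days, against 1487, 2221 and 2175 steps in control skin (log2 1.41 ± 0.22 (SE), limma adjusted p = 0.00719). P4ha2, a prolyl hydroxylase, had 1747, 1540 and 2004 steps in knockout skin at 4 days, against 775, 791 and 873 steps in control skin (log2 1.11 ± 0.17 (SE), limma adjusted p = 0.0067). Serpinh1, the collagen chaperone HSP47, rose 2.17-fold (adjusted p = 0.0265), and Adamts2, which removes the procollagen end piece, 2.59-fold (adjusted p = 0.0129). Of 24 fibroblast markers 9 rose and none fell (median 0.74), among them Pdgfra, the receptor that marks dermal fibroblasts, with 10668, 8822 and 10370 steps in knockout skin at 4 days, against 4118, 5502 and 4887 steps in control skin (log2 1.05 ± 0.16 (SE), limma adjusted p = 0.0067). Has2, a hyaluronan synthase, rose 2.17-fold (adjusted p = 0.00656). Summed over the list, fibroblast markers were at 55652 to 77872 steps in knockout skin at 4 days and 31353 to 45869 steps in control skin. For collagen processing the number passing was 3 without knockout replicate 3, 4 without control replicate 1, 4 with only the 2 groups in the fit and 10 with the deposited values. For fibroblast markers the number passing was 5 without knockout replicate 1, 4 without knockout replicate 3, 5 without control replicate 1 and 4 with only the 2 groups in the fit. Serpinh1 did not pass without knockout replicate 3 (adjusted p = 0.121) or without control replicate 1 (adjusted p = 0.1). Adamts2 did not pass without knockout replicate 3 (adjusted p = 0.0683).

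Some growth factor genes changed. Tgfb2, a TGF-beta ligand, had 1919, 1618 and 2164 steps in knockout skin at 4 days, against 640, 805 and 648 steps in control skin (log2 1.44 ± 0.22 (SE), limma adjusted p = 0.00679). Tgfb1 rose 2.03-fold (adjusted p = 0.0178), and Ctgf was lower (log2 -0.63, adjusted p = 0.0189). Bmp6, a BMP ligand, had 104, 135 and 98 steps in knockout skin at 4 days, against 312, 247 and 265 steps in control skin (log2 -1.29 ± 0.19 (SE), limma adjusted p = 0.00656). Of 22 BMP and TGF-beta pathway genes 3 rose and 5 fell. Of 19 imprinted and insulin-like growth genes 6 rose and 1 fell: Igf1, a growth factor made by fibroblasts and macrophages, rose 2.35-fold (adjusted p = 0.0116) and its receptor Igf1r was lower (log2 -0.34, adjusted p = 0.0436). For BMP and TGF-beta genes the number passing was 3 without knockout replicate 1, 2 without knockout replicate 3, 3 without control replicate 1, 5 without control replicate 3, 3 with only the 2 groups in the fit and 4 with the deposited values. For imprinted and growth genes the number passing was 1 without knockout replicate 3, 3 without control replicate 1, 2 with only the 2 groups in the fit and 3 with the deposited values. Tgfb1, Ctgf and Igf1r did not pass without knockout replicate 3 (adjusted p of 0.0768 to 0.196) or without control replicate 1 (adjusted p of 0.0627 to 0.136). Igf1 did not pass without knockout replicate 3 (adjusted p = 0.0602).

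Rises also fell on neighbouring genes of 1 imprinted region. Meg3, a maternally expressed non-coding RNA (chromosome 12, 109541001 to 109571726), had 3769, 3231 and 5049 steps in knockout skin at 4 days, against 890, 1021 and 972 steps in control skin (log2 2.04 ± 0.23 (SE), limma adjusted p = 0.00271). Its downstream neighbours were looked up after this value was seen. Rian had 1984, 1837 and 3378 steps in knockout skin at 4 days, against 420, 449 and 531 steps in control skin (log2 2.31 ± 0.30 (SE), limma adjusted p = 0.00479). Mirg had 556, 480 and 1094 steps in knockout skin at 4 days, against 110, 145 and 191 steps in control skin (log2 2.19 ± 0.35 (SE), limma adjusted p = 0.00742). The miRNA gene Mir376c, which lies between Rian and Mirg at 109722718 to 109722803, had 22, 19 and 23 steps in knockout skin at 4 days, against 3, 4 and 2 steps in control skin (log2 2.51 ± 0.26 (SE), limma adjusted p = 0.00188). All 4 calls held whichever of the 6 libraries was left out. The libraries were made from total RNA, so the Mir376c value counts fragments over that locus and is not a level of the mature miRNA.

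**Figure D2:**
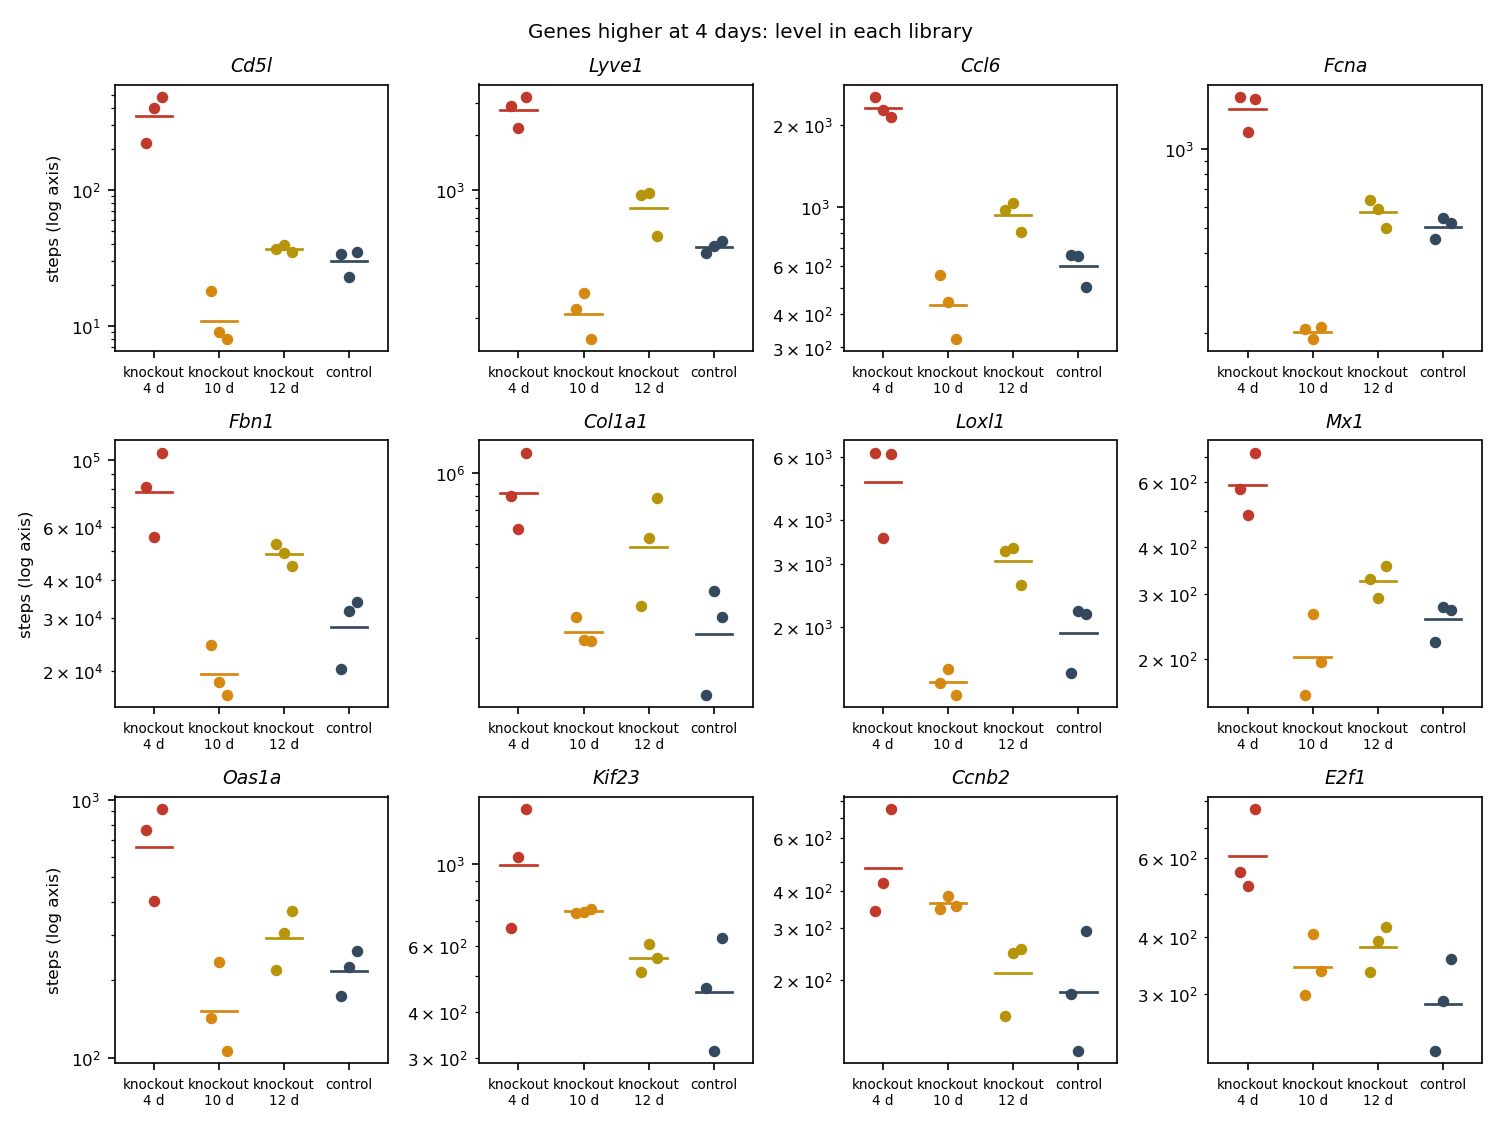
Each point is 1 library, in steps on a log axis, for 12 genes higher at 4 days, with bars at the geometric means; knockout skin at 4, 10 and 12 days stands left of control skin. Macrophage genes (Cd5l, Lyve1, Ccl6, Fcna) and Fbn1, Loxl1 and Mx1 show all 3 knockout values at 4 days above every other library shown.

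Mitotic genes rose in part. The genes of mitosis are switched on together in late S and G2 phase. Of 61 such genes 17 rose and none fell, with a median of 0.887. Kif23, a motor of the central spindle, had 671, 1044 and 1407 steps in knockout skin at 4 days, against 463, 313 and 632 steps in control skin (log2 1.14 ± 0.27 (SE), limma adjusted p = 0.0227). Ccnb2, a mitotic cyclin, had 341, 423 and 755 steps in knockout skin at 4 days, against 179, 115 and 293 steps in control skin (log2 1.39 ± 0.35 (SE), limma adjusted p = 0.0302). Aurkb, the kinase of the chromosomal passenger complex, and its partner Incenp rose 2.32- and 1.98-fold (adjusted p = 0.0369 and 0.026). Mki67, the proliferation marker, had 4824, 8970 and 13780 steps in knockout skin at 4 days, against 3026, 3062 and 7365 steps in control skin. The mitotic cyclin gene Ccnb1 had 388, 719 and 956 steps in knockout skin at 4 days, against 315, 246 and 530 steps in control skin. For both the groups overlapped and neither passed (adjusted p = 0.114 and 0.114). Knockout replicate 1 was the lowest of its group and control replicate 3 the highest of its own in Kif23, Ccnb2, Mki67 and Ccnb1. Kif23, Ccnb2, Aurkb and Incenp did not pass without knockout replicate 3 (adjusted p of 0.107 to 0.168) or without control replicate 1 (adjusted p of 0.075 to 0.137).

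How many mitosis genes passed depended on single libraries and on the fit. Of 48 DNA replication genes 1 rose, E2f1, a transcription factor of the G1 to S step, with 557, 521 and 771 steps in knockout skin at 4 days, against 224, 290 and 358 steps in control skin (log2 1.09 ± 0.20 (SE), limma adjusted p = 0.0103). None of 38 homologous recombination and Fanconi genes passed (median 0.25), although Rad54l had a log2 difference of 0.99 (adjusted p = 0.0653). Of 35 p53 pathway genes 4 rose and 2 fell. The shares passing were 2.08% for DNA replication and 17.1% for the p53 list, against 11.3% of all genes tested. Trp53 had 1461, 1401 and 1460 steps in knockout skin at 4 days, against 1344, 1311 and 1442 steps in control skin. Its target Cdkn1a had 2872, 2661 and 3035 steps in knockout skin at 4 days, against 3300, 2257 and 3203 steps in control skin, and in both genes the groups overlapped (adjusted p = 0.79 and 0.974). For mitosis the number passing was 41 without knockout replicate 1, 6 without knockout replicate 2, 0 without knockout replicate 3, 1 without control replicate 1, 1 without control replicate 2, 44 without control replicate 3, 1 with only the 2 groups in the fit, 0 with the deposited values and 9 with equal totals. For DNA replication the number passing was 9 without knockout replicate 1, 0 without knockout replicate 3, 3 without control replicate 3 and 0 with the deposited values. For homologous recombination the number passing was 7 without knockout replicate 1 and 2 without control replicate 3. For the p53 list the number passing was 0 without knockout replicate 1, 0 without knockout replicate 3, 0 without control replicate 1, 0 with only the 2 groups in the fit and 0 with the deposited values. E2f1 did not pass without knockout replicate 3 (adjusted p = 0.0549).

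Promoters of 2 mitotic genes are printed to show the cell cycle homology region, an element through which mitotic genes are held down in resting cells. Matches to TTTGAA on either strand are in capitals.
Ccnb2 (chr9:70421505-70421804, minus strand): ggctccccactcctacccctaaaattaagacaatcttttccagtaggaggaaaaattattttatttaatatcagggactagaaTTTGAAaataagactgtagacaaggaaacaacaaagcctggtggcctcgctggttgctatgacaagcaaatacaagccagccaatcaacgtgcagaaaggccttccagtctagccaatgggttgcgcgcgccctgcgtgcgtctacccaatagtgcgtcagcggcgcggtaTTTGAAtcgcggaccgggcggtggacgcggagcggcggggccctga
Kif23 (chr9:61946750-61947049, minus strand): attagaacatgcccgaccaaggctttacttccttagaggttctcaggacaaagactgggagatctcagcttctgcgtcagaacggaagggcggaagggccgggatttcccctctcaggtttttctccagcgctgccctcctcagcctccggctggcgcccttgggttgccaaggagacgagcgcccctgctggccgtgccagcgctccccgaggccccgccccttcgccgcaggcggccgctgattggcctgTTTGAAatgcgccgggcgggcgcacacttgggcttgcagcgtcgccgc
Ccnb2 holds 2 matches and Kif23 holds 1. Of the mitosis genes with a listed promoter 37 of 51 (72.5%) held TTTGAA, and 10 of the 14 that rose (71.4%), against 20.2% of all gene symbols. The CCAAT box (CCAAT), searched in the same way, was in 72.5% of the list and 41.1% of all symbols. These shares describe the lists and were not tested.

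Genes of differentiating keratinocytes fell in part. Of 23 spinous keratinocyte and desmosome genes 7 fell and none rose, with a median of -0.514. Dsg3, a desmosomal cadherin, had 1946, 2688 and 1857 steps in knockout skin at 4 days, against 4542, 3340 and 3517 steps in control skin (log2 -0.82 ± 0.18 (SE), limma adjusted p = 0.0174). Grhl1, a transcription factor of desmosome genes, had 4338, 5122 and 3845 steps in knockout skin at 4 days, against 7169, 7116 and 7200 steps in control skin (log2 -0.70 ± 0.11 (SE), limma adjusted p = 0.0067), the only call of the list that held whichever of the 6 libraries was left out. Of 47 cornified envelope and barrier genes 6 fell, among them Ivl (involucrin), Evpl and Ppl (log2 -0.81, -0.58 and -0.55, adjusted p = 0.0191, 0.0274 and 0.016), and Sprr4, a small proline-rich precursor of the envelope, with 93, 223 and 182 steps in knockout skin at 4 days, against 515, 990 and 1240 steps in control skin (log2 -2.45 ± 0.42 (SE), limma adjusted p = 0.00816). Krt1 and Krt10 are the keratin pair of the suprabasal layers. Krt1 had 29333, 29522 and 26293 steps in knockout skin at 4 days, against 32172, 23504 and 22856 steps in control skin (adjusted p = 0.758). Krt10 had 83403, 69360 and 51534 steps in knockout skin at 4 days, against 79252, 64113 and 47643 steps in control skin (adjusted p = 0.847). In both the groups overlapped. Of all genes tested 4.12% fell, against 30.4% of the spinous and 12.8% of the cornified envelope list. For spinous genes the number passing was 1 without knockout replicate 1, 1 without knockout replicate 3, 1 without control replicate 1, 3 without control replicate 3, 3 with only the 2 groups in the fit and 3 with the deposited values. For cornified envelope genes the number passing was 2 without knockout replicate 1, 1 without knockout replicate 3, 1 without control replicate 1, 3 without control replicate 3, 3 with only the 2 groups in the fit and 3 with the deposited values. Dsg3, Ivl, Evpl and Ppl did not pass without knockout replicate 3 (adjusted p of 0.0786 to 0.131) or without control replicate 1 (adjusted p of 0.0633 to 0.108).

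Of 23 basal keratinocyte markers 3 fell, with a list median of -0.503. Trp63, the transcription factor that maintains basal cells, had 3268, 4371 and 2760 steps in knockout skin at 4 days, against 8068, 5170 and 5112 steps in control skin (log2 -0.81 ± 0.19 (SE), limma adjusted p = 0.0238). Krt5, the basal keratin, had 55739, 60667 and 44314 steps in knockout skin at 4 days, against 98977, 65138 and 66785 steps in control skin, which did not pass (log2 -0.51, adjusted p = 0.138), though the groups did not overlap. Groups did not overlap for 29.4% of all genes tested. With equal library totals 6 basal genes passed. Control replicate 1 had the highest Trp63 and Krt5 values. Of 30 wound and stress keratinocyte genes 2 fell, Sprr1a and Tgfa (log2 -1.98 and -0.95, adjusted p = 0.0224 and 0.0272). That is 6.67% of the list, against 4.12% of all genes tested. Krt6a, Krt16 and Krt17, keratins induced by injury, had log2 differences of -0.75, 0.93 and -1.07 and did not pass (adjusted p = 0.606, 0.575 and 0.0567). For basal markers the number passing was 1 without knockout replicate 1, 0 without knockout replicate 3, 0 without control replicate 1, 0 with only the 2 groups in the fit, 1 with the deposited values and 6 with equal totals. For the wound list the number passing was 0 without knockout replicate 1, 0 without knockout replicate 3, 0 without control replicate 1, 0 without control replicate 3 and 1 with only the 2 groups in the fit. Trp63, Sprr1a and Tgfa did not pass without knockout replicate 3 (adjusted p of 0.0734 to 0.116) or without control replicate 1 (adjusted p of 0.0648 to 0.0998).

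Several regulators of the follicle and epidermis fell. Foxq1, a forkhead factor of hair differentiation, had 331, 316 and 332 steps in knockout skin at 4 days, against 640, 650 and 775 steps in control skin (log2 -1.07 ± 0.12 (SE), limma adjusted p = 0.00199). Sox9, which maintains follicle stem cells and the outer root sheath, had 1046, 1233 and 856 steps in knockout skin at 4 days, against 2674, 2038 and 2049 steps in control skin (log2 -1.11 ± 0.17 (SE), limma adjusted p = 0.00724). Foxc1, a quiescence factor of the same stem cells, was lower (log2 -0.70, adjusted p = 0.00773), as was Lhx2 (log2 -1.04, adjusted p = 0.0222). Of 20 follicle stem cell markers 5 fell and 1, Cd34, rose, a gene that fibroblasts also express. Hspb1, a small heat shock protein abundant in keratinocytes, had 6906, 6189 and 6234 steps in knockout skin at 4 days, against 11935, 11888 and 14167 steps in control skin (log2 -0.97 ± 0.11 (SE), limma adjusted p = 0.00233). Foxq1, Kcnk7 (log2 -1.12) and Ntn4 (log2 -0.86) were named because they were among the 25 smallest p values, that is, after their values were seen. Foxq1, Sox9, Foxc1 and Hspb1 passed whichever of the 6 libraries was left out. For follicle stem cell markers the number passing was 11 without knockout replicate 2, 2 without knockout replicate 3, 3 without control replicate 1 and 3 with only the 2 groups in the fit. Lhx2 did not pass without knockout replicate 3 (adjusted p = 0.109) or without control replicate 1 (adjusted p = 0.0963). Cd34 did not pass without knockout replicate 3 (adjusted p = 0.0549).

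Hair shaft genes were at low levels at 4 days and spread widely in control skin, and few passed. The median of 15 hair shaft keratins was -3.32 and that of 56 hair keratin-associated proteins -3.51, yet 2 and 0 of them passed. Tchh, the trichohyalin of the inner root sheath, had 386, 11899 and 2865 steps in knockout skin at 4 days, against 89792, 2214 and 64271 steps in control skin (log2 -3.31 ± 1.71 (SE), limma adjusted p = 0.242). Control replicate 2 was within the knockout range, while replicates 1 and 3 were higher than every 4-day library. Keratin-associated protein genes come as near-identical copies and their single values are uncertain. Krt32, a hair cuticle keratin, had 83, 251 and 126 steps in knockout skin at 4 days, against 751, 427 and 1045 steps in control skin (log2 -2.32 ± 0.62 (SE), limma adjusted p = 0.0351), without overlap. Of all genes tested, 13.4% were lower without overlap. Summed over the shaft keratins, the values were 332 to 3109 steps in knockout skin at 4 days and 1112 to 51476 steps in control skin. At 10 days the knockout skin had 1016352 to 1324860 steps and at 12 days 135 to 10179 steps. Hair genes thus differed between libraries of 1 genotype, and the part of this in the other differences was not tested. For shaft keratins the number passing was 0 without knockout replicate 1, 0 without knockout replicate 3, 0 without control replicate 1, 7 without control replicate 2, 0 without control replicate 3 and 1 with only the 2 groups in the fit. For keratin-associated proteins the number passing was 31 without control replicate 2 and 1 with the deposited values. Krt32 did not pass without knockout replicate 3 (adjusted p = 0.13) or without control replicate 1 (adjusted p = 0.114).

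**Figure D3:**
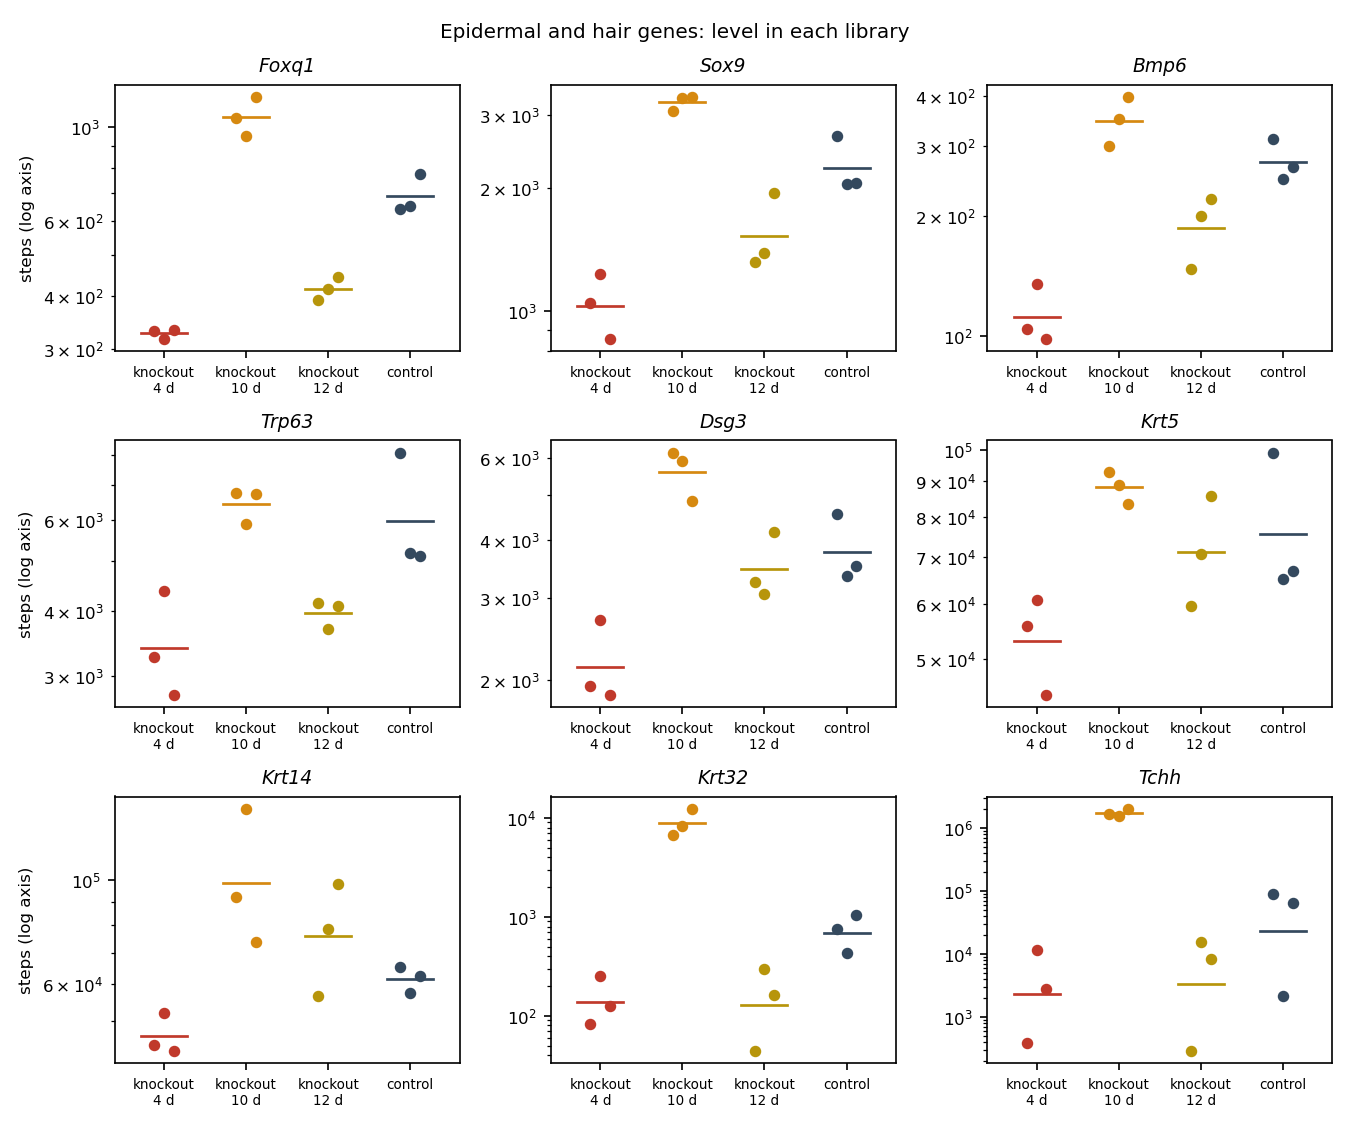
Points are single libraries in steps on a log axis for 9 epidermal and hair genes, with bars at the geometric means. The 10-day knockout libraries reach the highest Tchh and Krt32 levels, the 4-day libraries stand below control skin in Foxq1, Sox9, Bmp6, Trp63 and Dsg3, and the second control library falls within the 4-day range of Tchh.

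Muscle genes fell in part. Of 26 skeletal muscle genes 5 fell and none rose, with a median of -0.568, and the summed values overlapped (886875 to 1686214 steps in knockout skin at 4 days, 1284801 to 2810907 steps in control skin). Xirp1, an actin-binding protein of stressed muscle, had 947, 1052 and 1644 steps in knockout skin at 4 days, against 6264, 5510 and 10802 steps in control skin (log2 -2.61 ± 0.50 (SE), limma adjusted p = 0.011). Its partner Flnc, the muscle filamin, had 15028, 22809 and 19195 steps in knockout skin at 4 days, against 80725, 68131 and 88379 steps in control skin (log2 -2.07 ± 0.42 (SE), limma adjusted p = 0.0136), and Klhl40 and Lmcd1, both also muscle genes, were lower (log2 -2.06 and -1.93, adjusted p = 0.022 and 0.0226). Flnc, Klhl40 and Lmcd1 are outside the muscle list and were chosen by their values. For Myod1, the myogenic factor, and Mb, myoglobin, log2 differences were -1.23 and -0.80 (adjusted p = 0.0309 and 0.0223). Xirp1 and Flnc were highest in control replicate 3, whose muscle sum of 1284801 steps was the lowest of the controls. For the muscle list the number passing was 3 without knockout replicate 1, 3 without knockout replicate 2, 1 without knockout replicate 3, 1 without control replicate 1, 2 without control replicate 2, 2 with only the 2 groups in the fit and 3 with the deposited values. Flnc, Klhl40, Lmcd1, Myod1 and Mb did not pass without knockout replicate 3 (adjusted p of 0.0601 to 0.112) or without control replicate 1 (adjusted p of 0.0554 to 0.122).

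Some complement, hair regulator and Wnt pathway genes changed as well. Of complement genes 38.9% passed, of hair matrix factors 26.7% and of Wnt genes 12.2%, the last near the 11.3% of all genes tested. Of 18 complement genes 7 rose, among them, beside C1q, the receptor genes C3ar1 and C5ar1 and Cfp, properdin (log2 1.67, 1.37 and 1.64, limma adjusted p = 0.00976, 0.0101 and 0.00787). C1qa, C1qb and C1qc are also among the macrophage markers. Of 15 hair matrix transcription factors 4 fell, including Foxn1, the factor lost in nude mice, and Prdm1 (log2 -1.77 and -0.86, adjusted p = 0.0184 and 0.00919). Of 49 Wnt pathway genes 5 fell and Sfrp4, a secreted Wnt antagonist, rose (log2 0.99, adjusted p = 0.0474). The receptor Fzd10 and the transcription factor Tcf7 were among the falls (log2 -0.82 and -0.71, adjusted p = 0.0296 and 0.0188). A single gene passed among 12 inner root sheath genes (Krt75, lower), 15 blood endothelial markers (Eng, higher), 12 Schwann cell markers (Pmp22, higher), 21 adipocyte markers (Aqp7, lower) and 26 stress and unfolded protein response genes (Trib3, higher). These shares of 3.85% to 8.33% were below the 11.3% of all genes tested. None passed among 81 ribosomal protein, 19 sebaceous gland, 18 cholesterol synthesis, 16 mitochondrial, 13 melanocyte, 13 hedgehog, and 12 pericyte and smooth muscle genes. For complement the number passing was 1 without knockout replicate 3, 4 without control replicate 1 and 4 with only the 2 groups in the fit. For hair matrix factors the number passing was 1 without knockout replicate 1, 0 without knockout replicate 3, 1 without control replicate 1, 2 with only the 2 groups in the fit and 2 with the deposited values. For Wnt genes the number passing was 1 without knockout replicate 1, 11 without knockout replicate 2, 0 without knockout replicate 3, 1 without control replicate 1, 3 without control replicate 2, 3 without control replicate 3, 1 with only the 2 groups in the fit, 1 with the deposited values and 13 with equal totals. Foxn1, Sfrp4, Fzd10, Krt75, Eng and Trib3 did not pass without knockout replicate 3 (adjusted p of 0.0797 to 0.138) or without control replicate 1 (adjusted p of 0.0664 to 0.119). C3ar1, C5ar1, Prdm1, Tcf7 and Aqp7 did not pass without knockout replicate 3 (adjusted p of 0.0521 to 0.0836).

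The largest differences, whatever their group, included copies of gene families and genes outside the lists. Trim12a, a TRIM family gene with near copies beside it, stood at the floor in each 4-day library, against 252, 293 and 195 steps in control skin. It was at 181, 158 and 136 steps at 10 days and 242, 190 and 4 steps at 12 days, the last being the library with the high Y-linked genes. Its fitted log2 difference of -6.93 depends on the pseudocount and is no bound. The cause of the Trim12a difference between the 4-day and the 10-day knockouts was not tested. Hist1h4m had the largest fitted rise of the ranking (log2 4.80, adjusted p = 0.0375), with 316, 457 and 419 steps in knockout skin at 4 days, against 53, 3 and 12 steps in control skin. It is 1 of many near-identical histone H4 genes. The kallikreins Klk1b1, Klk1b24 and Klk1b27 rose 6.72-, 5.73- and 5.4-fold (adjusted p = 0.0128, 0.00882 and 0.024) and are also close copies. Cpz, a carboxypeptidase of the extracellular matrix, rose 4.99-fold (adjusted p = 0.0172), and Btnl2, Cyp4f18 and Slc13a3 6.11-, 6.06- and 5.27-fold (adjusted p = 0.00852, 0.00742 and 0.0247). Among the falls, the hair genes Krt84 and Fgf5 and the genes Car6 and Add2 had log2 differences of -4.20, -2.18, -2.98 and -3.02, Sfrp5, a Wnt inhibitor, -2.10 and Slco4c1 -2.11. Hist1h4m, Klk1b1, Klk1b27, Cpz, Slc13a3, Krt84, Fgf5, Car6, Add2, Sfrp5 and Slco4c1 did not pass without knockout replicate 3 (adjusted p of 0.0642 to 0.176) or without control replicate 1 (adjusted p of 0.0529 to 0.153).

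Set against the later knockouts, the 4-day skin passed the test at many genes against the 10-day animals and at few against the 12-day animals. Against the mean of both later groups 2400 genes (12.3%) were higher and 2045 (10.5%) lower. Taken alone, the 10-day group gave 4165 higher (21.4%) and 3664 lower (18.9%), and the 12-day group 7 higher (0.036%) and 21 lower (0.108%). At an unadjusted p under 0.05 the 12-day comparison had 3130 genes. Without knockout replicate 1, 2022 genes passed against both later groups, and without knockout replicate 3, 2025. Of the 24 macrophage markers 23 were higher than at 10 days and 2 higher than at 12 days. The deposited values gave 592 higher and 3013 lower against the later groups, with the median gene at -0.256, and equal totals 3212 higher and 1512 lower.

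The 7 genes higher than at 12 days were Cd5l, Col6a6, Lyve1, Ms4a8a, Ccl6, Fcna and Adamts15. Cd5l had 37, 39 and 35 steps at 12 days (log2 3.20, adjusted p = 0.00736). Ccl6 had 974, 1027 and 803 steps at 12 days (log2 1.32, adjusted p = 0.0219), between its values at 4 days and in control skin. Ms4a8a, a membrane protein gene of the Ms4a cluster, had 141, 126 and 101 steps at 12 days. At 4 days it had 328, 250 and 347 steps in knockout skin at 4 days, against 77, 57 and 66 steps in control skin (log2 2.19 ± 0.21 (SE), limma adjusted p = 0.00125). The comparisons with control skin and with later knockouts share the 4-day libraries. Among the 21 lower genes, Ccl20, which attracts CCR6-bearing cells, had 27, 39 and 27 steps at 4 days against 122, 134 and 220 steps at 12 days (log2 -2.29, adjusted p = 0.0234). The cystatin gene Stfa1 had 11, 13 and 23 steps at 4 days and 226, 317 and 555 steps at 12 days (log2 -4.43, adjusted p = 0.0183). Cdkn2b, an inhibitor of cyclin D kinases, had 175, 191 and 166 steps at 4 days and 340, 286 and 321 steps at 12 days (log2 -0.83, adjusted p = 0.0183).

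**Figure D4:**
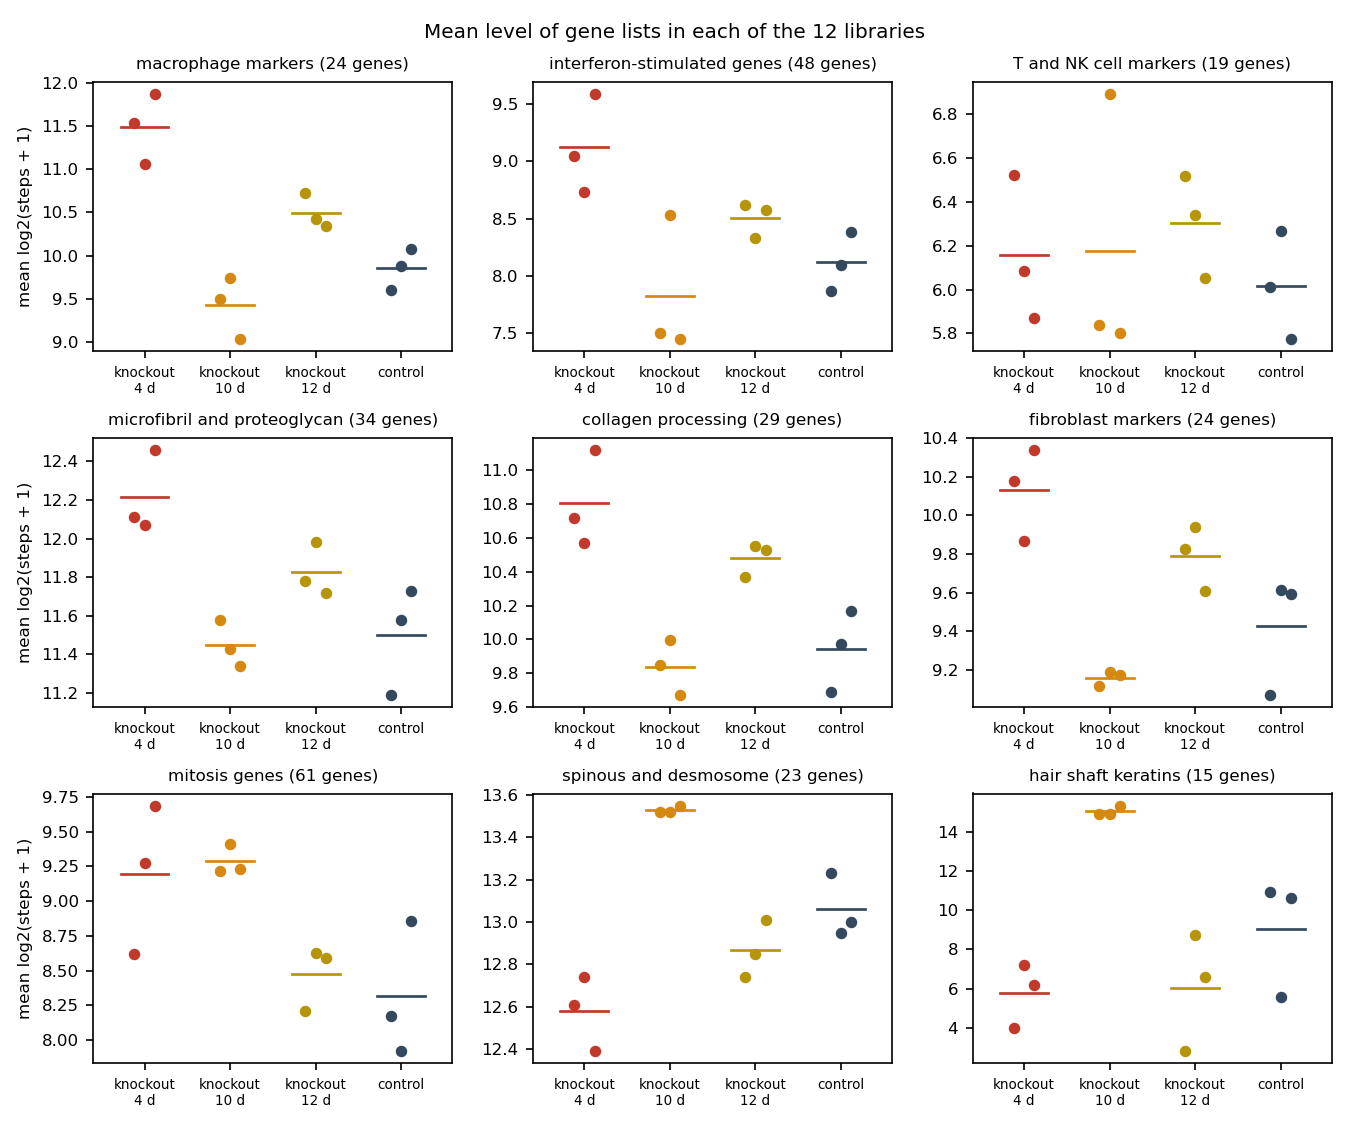
Each panel gives the mean log2(steps + 1) of a gene list in each of the 12 libraries, with bars at group means; knockout skin at 4, 10 and 12 days stands left of control skin. Macrophage markers lie at 11.06 to 11.87 at 4 days, above all other libraries, and hair shaft keratins at 14.9 to 15.31 in the 10-day knockouts.

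A small set of genes lay between control skin and the mean of the later knockouts. In all, 10 genes were called higher than control and lower than the mean of the later knockouts, and they were picked by these values. The uncharacterised genes 4930428N03Rik and 4931403M11Rik were at the floor in all 3 control libraries and had the smallest p values of all genes. The first, 4930428N03Rik, had 19, 17 and 26 steps at 4 days, 83, 93 and 73 steps at 10 days and 93, 104 and 135 steps at 12 days in knockout skin, against 1, 1 and 1 steps in control skin. The other, 4931403M11Rik, had 20, 31 and 27 steps at 4 days, 120, 131 and 82 steps at 10 days and 100, 161 and 189 steps at 12 days in knockout skin, against 1, 1 and 1 steps in control skin. No library of either gene overlapped between the 4-day, control and later groups. Their limma adjusted p values against control were 0.000158 and 0.000302, and at most 0.00178 and 0.00403 with 1 library left out. Both were known from the earlier results on these data.

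Gapdhs, the sperm form of glyceraldehyde-3-phosphate dehydrogenase (chromosome 7, 30729775 to 30743681), had 50, 52 and 41 steps at 4 days, 123, 131 and 109 steps at 10 days and 90, 161 and 186 steps at 12 days in knockout skin, against 8, 6 and 5 steps in control skin (4 days against control, log2 2.74 ± 0.27 (SE), limma adjusted p = 0.00125). It shares sequence with Gapdh and its pseudogenes, so its level is uncertain. Dnah17, an axonemal dynein heavy chain (chromosome 11, 118021723 to 118130634), had 93, 105 and 123 steps at 4 days, 439, 473 and 313 steps at 10 days and 409, 604 and 633 steps at 12 days in knockout skin, against 51, 45 and 56 steps in control skin (4 days against control, log2 1.06 ± 0.21 (SE), limma adjusted p = 0.0123). Of the 10, Col2a1, Tarm1, Ccl17, Aldh8a1, Gm1141 and 1700061I17Rik are the others, and all 10 had a knockout level at 4 days of at most 123 steps. Against the 12-day group alone, only 4930428N03Rik, 4931403M11Rik and Dnah17 of the 10 passed. The rest had limma adjusted p values of 0.056 to 0.289 there. Tarm1, Ccl17 and Gm1141 did not pass against the 10-day group alone (limma adjusted p of 0.052 to 0.492). Gsdmc, a gasdermin with close copies beside it, had 278, 350 and 192 steps at 4 days, 496, 583 and 184 steps at 10 days and 1056, 833 and 2490 steps at 12 days in knockout skin, against 47, 17 and 9 steps in control skin (4 days against control, log2 3.70 ± 0.60 (SE), limma adjusted p = 0.00742). Against the later groups together it did not pass (log2 -1.39, adjusted p = 0.0775). Conversely 3 genes, Peg10, Slc6a2 and Guca2a, were lower than control at 4 days (log2 against control -0.71, -0.47 and -1.47). They were lower still in the mean of the later knockouts. Against the 12-day group alone none of the 3 passed (limma adjusted p of 0.172 to 0.681). Slc6a2 had 514, 575 and 529 steps at 4 days and 459, 540 and 521 steps at 12 days. Col2a1, Ccl17, Aldh8a1, Gm1141, 1700061I17Rik, Peg10, Slc6a2 and Guca2a did not pass without knockout replicate 3 (adjusted p of 0.0597 to 0.155) or without control replicate 1 (adjusted p of 0.0574 to 0.12). Dnah17 and Tarm1 did not pass without knockout replicate 3 (adjusted p of 0.067 to 0.1).

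**Figure D5:**
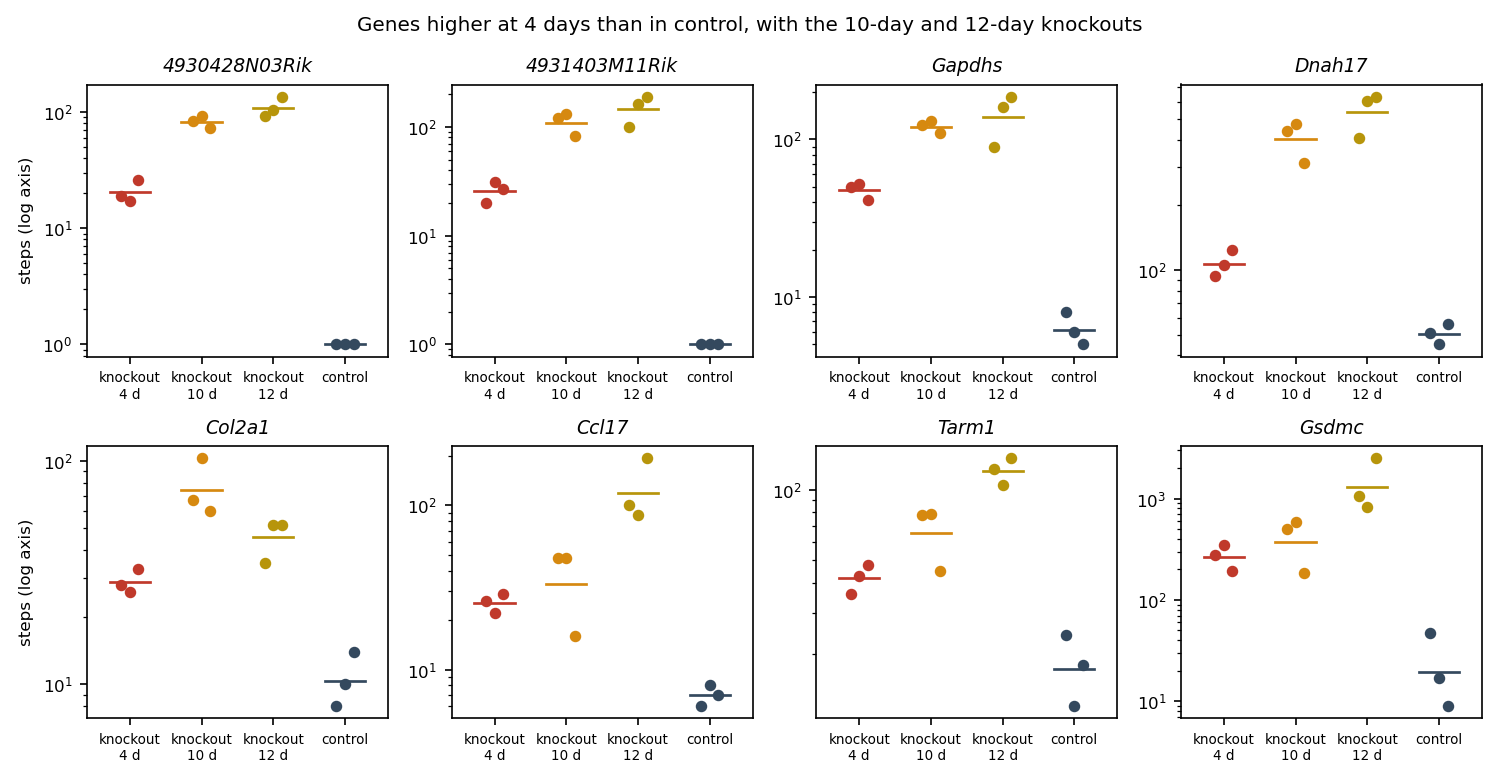
Points are single libraries in steps on a log axis for 8 genes higher at 4 days than in control skin, with bars at the geometric means and knockout skin at 4, 10 and 12 days left of control skin. For 4930428N03Rik, 4931403M11Rik and Dnah17 each library at 10 and 12 days lies above each library at 4 days, and control libraries lie lowest.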

How the data were processed

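RNA was extracted from whole back skin with Trizol and made into libraries from total RNA with a stranded TruSeq Gold kit, per the labels' protocols. The submitters' processing notes name STAR, featureCounts and DESeq2; versions, settings, order of use and genome build are not stated there. The deposited table holds a normalised signal per gene, called normalised counts by the authors, and no raw counts. Each column was divided by its smallest positive value (1 step), of which all values were whole multiples within 1e-04. Genes with a mean of 10 or more over 12 libraries were tested with limma 3.58.1 in R 4.3.3 (trend, two-sided) on log2(steps + 1), with all 4 whole-skin groups in 1 fit and Benjamini-Hochberg adjustment over 19436 genes at a threshold of 0.05. Fold changes are on that scale and understate changes of low genes. Since the step is a rescaled unit, no counting interval is given. P-values measure the spread between these animals. With steps taken as counts, replicate pairs of a group had a chi-square per degree of freedom of 41.6 to 123.7. As the step is a rescaled unit, sampling noise is not known from these values.

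The gene symbols come from the deposited table, and 49326 of its 49585 gene IDs were found, ignoring the version, in the GENCODE M21 annotation (GRCm38). The named genes are Srsf2, the 15 largest rises and 15 largest falls without overlap between groups, and up to 6 members of each of the 57 gene lists, with exceptions stated in the text. The members and lists were chosen with earlier results of these data known. Alternatives were other scalings, pseudocounts and filters, a fit of the compared groups alone, a replicate block and each library left out. Setting the 10-day or 12-day group alone against the 4-day group was added after seeing the data. On simulated data of 19436 genes for the comparison with control, the script recovered 55% of 2-fold and 91% of 4-fold changes and called 5 unchanged genes. RefSeq promoters (GRCm38.p6) were searched on both strands.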

Additional observations from a re-analysis of the deposited data

Results flagged for a closer look

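For 10 gene lists a large share of members passed limma's test of the 4-day skin against the later knockouts together, so these lists differed between knockout times. Against the 10-day and 12-day skin combined, 22.9% of all genes passed. Of 24 macrophage markers 23 differed, all higher at 4 days, as did 13 of 21 Fc and myeloid receptors, 15 of 23 Toll-like receptors and nucleic acid sensors and 25 of 48 interferon-stimulated genes. Of 34 microfibril, elastic fibre and proteoglycan genes 20 differed (19 higher at 4 days, 1 lower), and of 29 collagen folding and processing genes 19 (18 higher, 1 lower). Lower at 4 days were 16 of 23 spinous keratinocyte genes, 22 of 30 wound and stress keratinocyte genes and 47 of 56 hair keratin-associated proteins. Of 22 BMP and TGF-beta pathway genes 13 differed (4 higher, 9 lower). Taken against the 12-day skin alone, 2 macrophage markers and 1 wound gene passed, and 0 members of the other 8 lists. Against the 10-day skin alone 23 macrophage markers, 16 wound genes and 56 keratin-associated proteins passed. Hair shaft keratins summed to 332 to 3109 steps at 4 days, against 1016352 to 1324860 steps at 10 days and 135 to 10179 steps at 12 days. The part of that hair signal in these differences was not tested.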

How the results depend on the processing

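The 2201 genes called against control became 750 with the deposited values and 757 with only the compared groups in the fit. Leaving out 1 library gave 295 to 2583 genes, the lowest without knockout replicate 3. With the replicate numbers of the labels as a block, 2063 genes passed against control and 4248 against the later knockouts; same-numbered deviations correlated at -0.0497, -0.352 and 0.84, so the numbers were not taken as a pairing. The other settings tried (pseudocount 8, no filter, a mean of 50 or more and equal totals) gave 1834 to 2230. Equal totals changed the share of higher calls from 63.7% to 50.6%, and the deposited values to 53.9%, with the median gene at -0.089 and -0.0986. The 4445 calls against both later knockout groups were 7829 against the 10-day group alone and 28 against the 12-day group alone, and 2022 to 4987 with 1 library left out. Equal totals and the deposited values made 68.0% and 16.4% of them higher, against 54.0%. Of 354 named genes, 8 changed sign under some setting, with limma adjusted p values of 0.858 or more in those settings. The log2 difference of Srsf4 was -0.0167 with the deposited values and -0.00705 with equal totals, that of Trp53 -0.0123 and -0.00265 under the same settings, and that of Hexim1 -0.0042 with the deposited values. With 1 library left out, the log2 difference ranged between -0.247 and 0.0159 for Srsf7, between -1.02 and 0.0796 for Ddx3y, between -0.862 and 0.266 for Kdm5d, between -0.189 and 0.085 for Cdkn1a and between -0.0936 and 0.287 for Krt10. Of the calls among these named genes, 117 were lost without knockout replicate 3 and 90 without control replicate 1. With 3 libraries per group, 2-fold changes are missed in part, as on simulated data. The cause of these shifts was not tested. For gene lists the largest dependence was that of mitosis, with 0 to 44 calls. Genes near the floor of 1 step have no reliable fold change.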
